A study of Homo sapiens with 6 samples.

Results

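The genes described here encode the folding machinery of the cytosol and of the mitochondrial matrix. They were taken by symbol from a list that was chosen with earlier results of these data known. Each of its 36 symbols was found on a single row among 27734 gene rows. Of the 36 genes, 35 passed a filter on low values (a mean of at least 1 FPKM, fragments scaled to transcript length and library total, over the 6 libraries). RNA was sequenced from GDC-R cells, which are PC-3 cells kept continuously under GDC-0068 (ipatasertib, an inhibitor of the AKT kinases), and from control PC-3 cells carried alongside with DMSO, the vehicle, with 3 libraries in each group. PC-3 is a human prostate cancer line that grows without androgen. Both groups were at passages 20 to 30 in the same medium, while neither the dose, nor the presence of drug at harvest, nor how many resistant lines were derived is stated in the labels. If the libraries of a group are repeats of 1 culture, the p-values measure technical spread.

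Many chaperones bind unfolded or partly folded proteins and release them in cycles driven by ATP. HSP70 proteins take their substrates from J-domain proteins and are reset by nucleotide exchange factors, HSP90 acts later on nearly folded clients such as kinases and steroid receptors, and the ring-shaped TRiC chaperonin folds actin and tubulin. Mitochondria hold their own HSP70, HSP90 and chaperonin. In the heat shock response the transcription factor HSF1 binds repeats of the letters GAA in the promoters of many of these genes. AKT is itself a client of HSP90 with its cochaperone CDC37.

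Summed gene counts were 35562400 to 44279078 fragments in GDC-R libraries and 37252408 to 41027296 in control libraries. The libraries matched the label: the epithelial genes KRT8, KRT18 and EPCAM and the mesenchymal gene VIM lay between 132.3 and 441.1 FPKM in GDC-R libraries and between 147.5 and 415.4 in control libraries. KLK3, which encodes prostate-specific antigen, was at 0 in all 6 libraries, while TMPRSS2 was detected at 4.67 to 5.39 FPKM in GDC-R and 4.39 to 5.50 in control libraries. The summed level of 4 leukocyte markers was 0.11 to 0.161 FPKM in GDC-R and 0.0341 to 0.135 in control libraries, with CD3E at 0 in all control libraries. That of 4 endothelial and fibroblast markers was 0.281 to 0.477 FPKM in GDC-R and 0.85 to 1.12 in control libraries, most of it PECAM1. Control replicate 1 stood apart by base composition, being relatively high in AT-rich transcripts: the Spearman's rho between its deviation from the control mean and transcript GC content was -0.734 over 12503 genes, a description across genes. Calls that rest on it are given with and without it.

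Most chaperone genes were modestly lower in GDC-R cells. Of the 35 tested, 22 fell, 1 rose (DNAJB6) and 12 did not pass, at a p adjusted by Benjamini-Hochberg over all 13070 genes tested (edgeR, quasi-likelihood) of under 0.05. Among all genes tested, 50.2% passed, of which those that fell were 25.7% and those that rose 24.5% of all genes. As the list was chosen with earlier results of these data known, the comparison with all genes is a description and not a test. The median log2 fold change of the tested chaperone genes was -0.21, against -0.01 for all genes, and 34 of the 35 had a negative value. All of these changes were small, from -0.51 to 0.21 on the log2 scale, and 0 reached 2-fold. Abundant genes fell more often than others: at a mean of at least 50 FPKM, a limit set after the values were seen, 39.5% of 1723 genes fell, and 17 of 25 chaperone genes (68%).

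The plot of fold changes shows the direction by role. The HSP90 group, the HSP70 family, TRiC and the mitochondrial chaperones, with 6, 5, 7 and 5 genes, held 18 of the 22 genes that fell. Differences between roles were not tested. FPKM ranges of the 2 groups did not overlap for 22 of the 35 genes with GDC-R lower and for 1 with GDC-R higher, against 28.5% and 31.9% of all genes tested. Without control replicate 1, 30 chaperone genes fell and 1 rose, where 32.9% of all genes fell and 31.9% rose. With a correction for transcript GC content the counts were 26 and 1, where 31.7% of all genes fell and 31.0% rose.

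**Figure D1:**
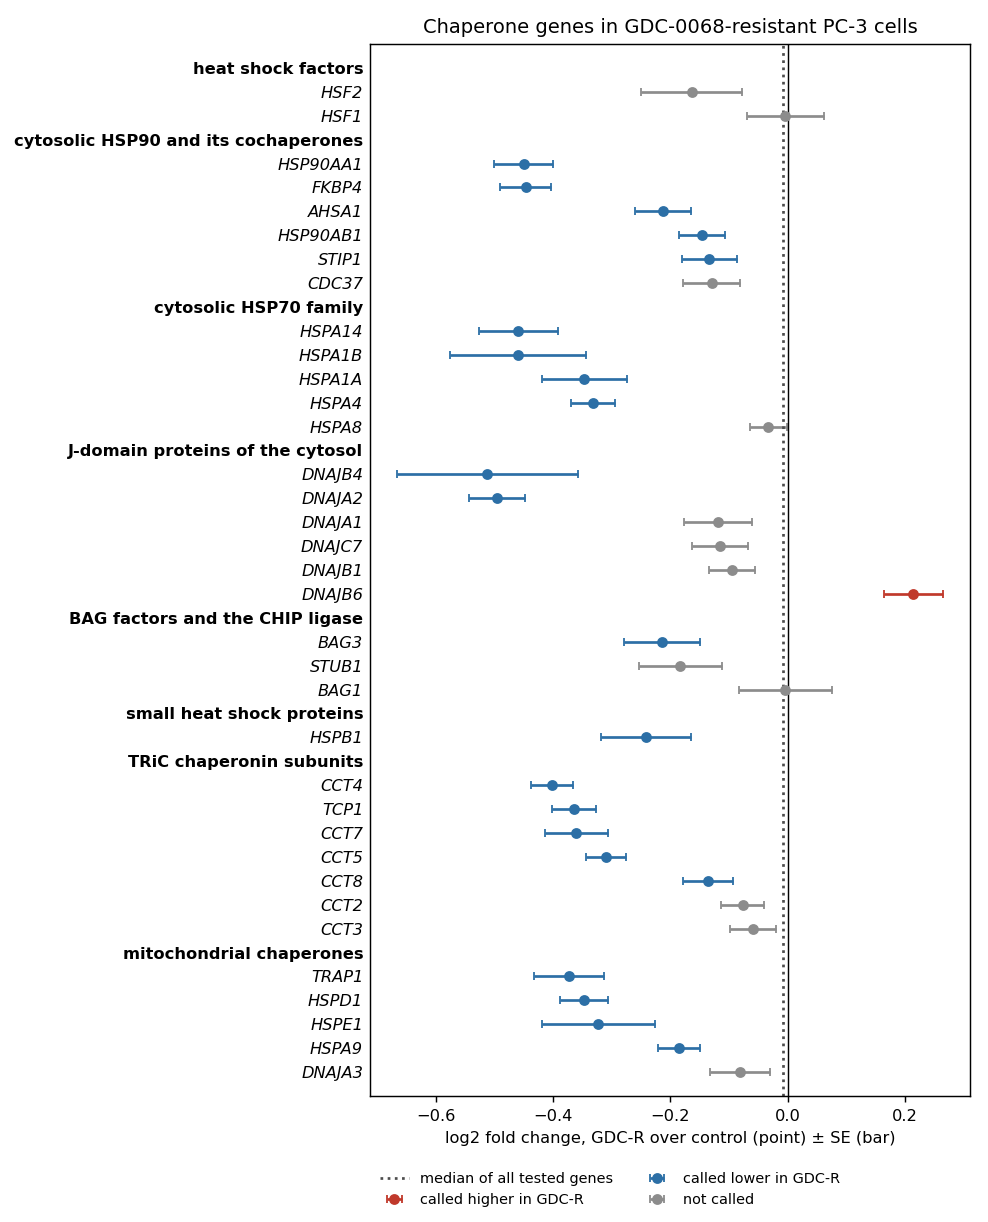
Log2 fold change of each tested chaperone gene, GDC-R over control (horizontal axis, with the standard error of the edgeR fit as bars), grouped by role. Of 35 genes, 22 lie left of zero and are called lower, DNAJB6 at 0.21 is called higher, and the dotted line marks the median of all genes tested, -0.01.

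The shift was present in each resistant library. Relative to the control mean, the median of the 35 genes was -0.23, -0.17 and -0.21 (log2 of FPKM scaled by TMM factors) in GDC-R replicates 1, 2 and 3, with 33, 32 and 34 genes below that mean. The same median lay between -0.0011 and 0.0164 in the control libraries, which define the mean. How many of all genes tested lay below the control mean in each library was not counted. Together the 36 genes took 1.39% to 1.41% of all fragments in GDC-R libraries, against 1.59% to 1.61% in control libraries. Their FPKM values summed to 5619, 5654 and 5561 in GDC-R replicates 1 to 3, against 6268, 6391 and 6433 in control replicates 1 to 3. The sums did not overlap and were 11.8% lower in GDC-R cells (exact two-sided permutation test, p = 0.1, the smallest that 3 against 3 libraries allow). By role, sums without overlap were lower by 3.5% (HSP70 family), 9.0% (J-domain genes), 13.2% (TRiC), 15.1% (HSP90 group) and 17.0% (mitochondrial chaperones). Sums of the heat shock factors, of the small heat shock proteins and of BAG1, BAG3 and STUB1 overlapped. Such sums weigh the most abundant genes most. In bulk RNA, fewer transcripts per cell and fewer cells that express a gene cannot be told apart.

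**Figure D2:**
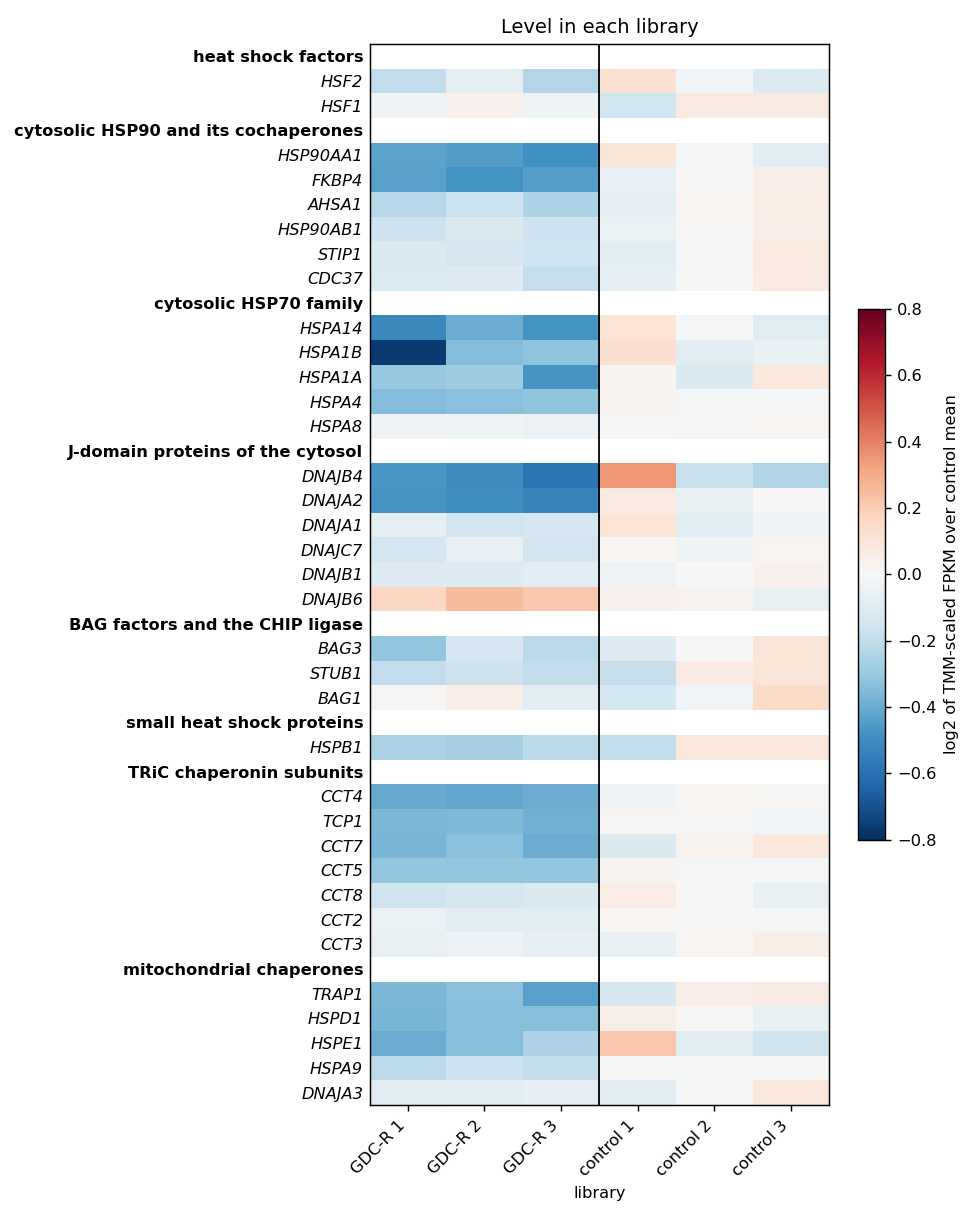
Level of each tested chaperone gene (rows) in each library (columns, GDC-R left of the line, control right of it), as log2 of TMM-scaled FPKM over the mean of the control libraries. GDC-R columns are blue for most rows, with DNAJB6 red and HSPA8, HSF1 and BAG1 near white, and control replicate 1 is the highest control library for DNAJB4 and HSPE1.

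Promoter sequence was read from RefSeq (GRCh38.p14) for 32 of the 36 genes, as windows from 250 bases before to 50 after each listed start; HSF1, STUB1, HSPA14 and FKBP4 had no entry. A heat shock element of 3 alternating units (GAA, any 2 bases, TTC, any 2 bases, GAA, searched on both strands) was found in windows of 6 of the 32 genes (18.8%) and of 0.608% of all 27305 genes with an entry (0.49% of 35116 windows). The genes were HSP90AA1, HSP90AB1, HSPA8, HSPD1, DNAJA1 and DNAJB6. Of these 6, 3 fell, 1 rose and 2 did not pass, and of the other 26, 17 fell, 0 rose, 8 did not pass and 1 was not tested. Only exact matches were counted, and 6 genes are too few to set against the other 26. HSPE1 is among those 26, although its model overlaps that of HSPD1 head to head by 278 bases. A match was counted only for the gene whose window held it. A link between the element and the direction of change was not tested. A pair of units (GAA, any 2 bases, TTC, or TTC, any 2 bases, GAA), which the 3-unit element contains, was found for 17 of the 32 genes (53.1%) and for 16.2% of all genes (13.5% of windows). Of the 17, those called lower were HSP90AA1, HSP90AB1, HSPA1A, HSPA1B, HSPA9, HSPB1, HSPD1, DNAJB4, STIP1, TCP1 and CCT4. DNAJB6 was called higher, HSPA8, DNAJA1, DNAJB1 and CCT2 were not called, and HSPB8 was not tested. A match describes letters in a window and not binding. The 250 bases before the start are shown for 4 genes that carry the 3-unit element and differ in response, HSP90AA1 (lower), HSP90AB1 (slightly lower), HSPA8 (not called) and DNAJB6 (higher), with the match in capitals, 5′ to 3′ on the strand of the gene.
HSP90AA1, chr14:102087045-102087294, minus strand: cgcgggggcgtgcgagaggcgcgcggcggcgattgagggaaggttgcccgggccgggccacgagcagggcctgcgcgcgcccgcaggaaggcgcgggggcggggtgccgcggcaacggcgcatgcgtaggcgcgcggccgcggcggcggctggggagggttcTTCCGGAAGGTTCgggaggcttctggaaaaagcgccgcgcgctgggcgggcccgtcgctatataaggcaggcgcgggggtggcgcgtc
HSP90AB1, chr6:44247693-44247942, plus strand: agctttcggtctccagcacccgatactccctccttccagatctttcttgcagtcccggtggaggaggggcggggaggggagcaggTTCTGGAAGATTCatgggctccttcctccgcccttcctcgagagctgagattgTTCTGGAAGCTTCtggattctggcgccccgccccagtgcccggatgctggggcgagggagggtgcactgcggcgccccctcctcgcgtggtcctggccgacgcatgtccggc
HSPA8, chr11:123062137-123062386, minus strand: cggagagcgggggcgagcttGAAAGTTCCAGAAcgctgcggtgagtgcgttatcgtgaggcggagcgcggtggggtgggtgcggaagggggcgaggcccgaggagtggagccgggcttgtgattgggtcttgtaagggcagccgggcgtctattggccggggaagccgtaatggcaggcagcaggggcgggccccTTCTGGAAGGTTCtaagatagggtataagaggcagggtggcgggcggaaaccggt
DNAJB6, chr7:157336754-157337003, plus strand: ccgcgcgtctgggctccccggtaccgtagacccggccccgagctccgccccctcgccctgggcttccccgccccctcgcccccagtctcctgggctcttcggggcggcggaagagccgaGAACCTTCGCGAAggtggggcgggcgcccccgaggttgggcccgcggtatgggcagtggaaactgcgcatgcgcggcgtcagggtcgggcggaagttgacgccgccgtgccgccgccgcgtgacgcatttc
HSPD1 held 4 alternating units in a row, and 30 bases are shown with that run in capitals.
HSPD1, chr2:197500061-197500090, minus strand: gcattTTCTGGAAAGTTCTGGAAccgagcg

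The heat shock factors themselves did not pass. HSF1, the main activator of the heat shock response, was at 70.7, 73.6 and 70.3 FPKM in GDC-R replicates 1 to 3 and at 63.1, 74.7 and 74.6 in control replicates 1 to 3. Its groups overlapped, with control replicate 1 lowest. The log2 fold change was -0.004 ± 0.07 (SE), with a 95% interval of -0.15 to 0.14, and became -0.07 (edgeR adjusted p = 0.0471) without control replicate 1. HSF2, a related factor also active in development, had 4.28, 4.66 and 4.17 FPKM in GDC-R and 5.22, 4.77 and 4.49 in control libraries, a log2 fold change of -0.16 ± 0.09 (SE, edgeR adjusted p = 0.147), and of -0.10 without control replicate 1. These are RNA levels, and HSF1 activity is set mainly on the protein.

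The HSP90 group fell, most clearly the stress-inducible isoform and 1 immunophilin. HSP90AA1, which encodes the inducible HSP90-alpha, had 511.0, 504.1 and 489.9 FPKM in GDC-R replicates 1 to 3, against 717.4, 670.3 and 639.0 in control replicates 1 to 3. Every resistant library was below every control library, and the log2 fold change was -0.45 ± 0.05 (SE; 26.8% lower; edgeR adjusted p = 0.000148). Its position is chromosome 14, bases 102547075 to 102606086 (hg19, 1-based). HSP90AB1, which encodes the constitutive HSP90-beta (chromosome 6, 44213903 to 44221625), had 613.9, 634.5 and 613.7 FPKM in GDC-R, against 649.0, 680.8 and 703.7 in control libraries. Its groups did not overlap either, yet the change was smaller, -0.15 ± 0.04 (adjusted p = 0.0134), and was lost without GDC-R replicate 1 or 3 (-0.13 each) or control replicate 3 (-0.11).

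The 2 HSP90 isoforms changed unequally. The FPKM ratio of HSP90AA1 to HSP90AB1 was 0.832, 0.794 and 0.798 in GDC-R replicates 1 to 3, against 1.11, 0.985 and 0.908 in control replicates 1 to 3. The ratios did not overlap, with a log2 difference of -0.30 (exact two-sided permutation test, p = 0.1, the smallest possible). The difference was -0.23 without control replicate 1. Per length, the control ratios lay on both sides of 1, and in GDC-R libraries the beta isoform was the more abundant. That order depends on the transcript lengths used, 4074 bases for HSP90AA1 and 2895 for HSP90AB1. By fragments HSP90AA1 was the higher in every library, with 70092, 86084 and 76741 in GDC-R replicates 1 to 3, against 59842, 76992 and 68309 for HSP90AB1.

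Of the 4 HSP90 cochaperones among the 36 genes, FKBP4 had the largest fold change. FKBP4, an immunophilin (FKBP52) that joins HSP90 to steroid receptors, had 61.3, 59.4 and 60.9 FPKM in GDC-R, against 77.4, 82.2 and 84.6 in control libraries. All 3 resistant libraries lay below all control libraries (log2 fold change -0.45 ± 0.04, SE; edgeR adjusted p = 7.05e-05). AHSA1, the activator of the HSP90 ATPase, had 130.5, 135.3 and 128.7 FPKM in GDC-R and 141.8, 152.3 and 156.8 in control libraries, again without overlap (-0.21 ± 0.05, adjusted p = 0.00599).

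STIP1 and CDC37 lay near the threshold. STIP1, the adaptor (HOP) that passes clients from HSP70 to HSP90, averaged 159.6 ± 2.25 FPKM in GDC-R and 172.8 ± 10.5 in control libraries (SD, n = 3 each). Its log2 fold change of -0.13 ± 0.05 passed with all libraries (edgeR adjusted p = 0.0417) and lost the call in 11 of 17 alternatives, among them leaving out any library other than control replicate 1. CDC37, which brings kinases including AKT to HSP90, averaged 211.9 ± 6.94 FPKM in GDC-R and 228.7 ± 12.2 in control libraries, and its -0.13 ± 0.05 just missed the threshold (edgeR adjusted p = 0.0508). It passed with the GC correction (-0.16, adjusted p = 0.00209) and without control replicate 1 (-0.16, adjusted p = 0.00019). Summed over the 6 genes, the HSP90 group was at 1694, 1710 and 1654 FPKM in GDC-R replicates 1 to 3, against 1963, 1989 and 2007 in control replicates 1 to 3, 15.1% lower without overlap.

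Within the HSP70 family the constitutive gene stayed level while the other members fell. HSPA8, the constitutive HSC70 and the most abundant of the 36 genes per length, had 1134, 1128 and 1117 FPKM in GDC-R and 1124, 1134 and 1153 in control libraries. The groups overlapped, and the log2 fold change of -0.03 ± 0.03 (SE, edgeR adjusted p = 0.419) had a 95% interval of -0.11 to 0.04. The interval leaves out a change as large as that of HSPA4. HSPA4, a large HSP70-like protein (APG-2) that acts as nucleotide exchange factor, had 85.1, 85.8 and 86.7 FPKM in GDC-R, against 107.3, 106.2 and 106.3 in control libraries. Both groups were tight and did not overlap (-0.33 ± 0.04, adjusted p = 0.000144). HSPA14, a ribosome-associated member, had 6.78, 7.34 and 6.95 FPKM in GDC-R and 10.2, 9.46 and 8.91 in control libraries (-0.46 ± 0.07, adjusted p = 0.000658).

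**Figure D3:**
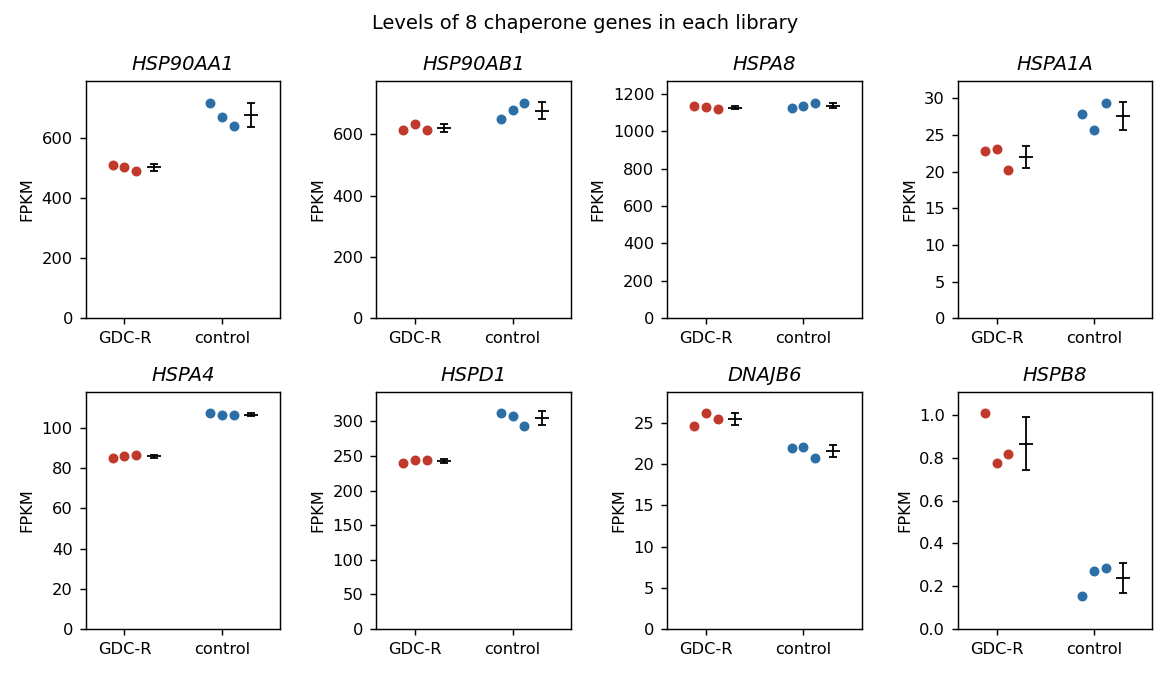
FPKM of 8 chaperone genes in each library (points, GDC-R left in red, control right in blue), with mean and SD (black, n = 3 each) and the vertical axis starting at 0. GDC-R points lie below control points for HSP90AA1, HSP90AB1, HSPA1A, HSPA4 and HSPD1, mix with them for HSPA8, and lie above them for DNAJB6 and HSPB8.

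The stress-inducible HSP70 genes also fell, though the copies cannot be cleanly separated. HSPA1A and HSPA1B are neighbours on chromosome 6 (31783291 to 31785719 and 31795512 to 31798031, hg19) that encode nearly the same protein. Of the 50-base words of the longest HSPA1A transcript (GENCODE 29), 72.6% were also found in that of HSPA1B, so each gene alone is uncertain. HSPA1A had 22.8, 23.1 and 20.2 FPKM in GDC-R replicates 1 to 3 and 27.8, 25.7 and 29.4 in control replicates 1 to 3, a log2 fold change of -0.35 ± 0.07 (SE, edgeR adjusted p = 0.00437). HSPA1B had 14.7, 19.6 and 19.9 FPKM in GDC-R and 26.7, 23.3 and 23.6 in control libraries (-0.46 ± 0.12, adjusted p = 0.0104), with GDC-R replicate 1 the lowest. Added together the pair was at 37.5, 42.7 and 40.2 FPKM in GDC-R, against 54.5, 49.0 and 53.0 in control libraries, and the sums did not overlap. The ratio of the pair to HSPA8 was 0.0331, 0.0378 and 0.036 in GDC-R, against 0.0485, 0.0432 and 0.046 in control libraries, a log2 difference of -0.37 (exact two-sided permutation test, p = 0.1, the smallest possible). Inducible HSP70 transcripts were a few per cent of the constitutive one per length in both groups.

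J-domain proteins, which load substrates on HSP70, moved in different directions. DNAJA2, a major substrate-loading partner of HSC70, had 47.7, 46.9 and 45.6 FPKM in GDC-R, against 67.4, 62.5 and 64.9 in control libraries. The groups were far apart, with a log2 fold change of -0.49 ± 0.05 (SE; 29% lower; edgeR adjusted p = 6.65e-05). DNAJB6, which suppresses aggregation of polyglutamine proteins, had 24.7, 26.2 and 25.5 FPKM in GDC-R, against 22.0, 22.1 and 20.8 in control libraries. It was higher in all 3 resistant libraries (0.21 ± 0.05, adjusted p = 0.00787) and was called higher in all 17 alternatives. DNAJB6 spans bases 157129710 to 157210133 of chromosome 7 (hg19).

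DNAJB4, a low-abundance relative of DNAJB1, had 1.88, 1.84 and 1.74 FPKM in GDC-R and 3.22, 2.27 and 2.16 in control libraries. Control replicate 1 was the highest control library: the log2 fold change was -0.51 ± 0.15 (SE, edgeR adjusted p = 0.0229) with all libraries and -0.30 (adjusted p = 0.0124) without it. The DNAJB4 call was lost without GDC-R replicate 1, 2 or 3 (-0.53, -0.51 and -0.47). Its model overlaps FUBP1 by 48 bases, and the counting is not stated to use strand.

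The other J-domain genes did not pass. DNAJB1, the classic heat-inducible HSP40, had 85.0, 84.7 and 85.5 FPKM in GDC-R and 86.4, 90.4 and 92.1 in control libraries, a small difference without overlap (log2 fold change -0.09 ± 0.04, SE; edgeR adjusted p = 0.0748). It passed with the GC correction (-0.15, adjusted p = 0.00155) and without control replicate 1 (-0.11, adjusted p = 0.00156). DNAJA1, an abundant farnesylated HSP40, averaged 104.2 ± 2.83 FPKM in GDC-R and 111.5 ± 7.38 in control libraries (SD, n = 3 each; edgeR adjusted p = 0.117). The log2 fold change of DNAJA1 was -0.12, and -0.06 without control replicate 1. DNAJC7, which binds both HSP70 and HSP90, averaged 33.8 ± 1.04 FPKM in GDC-R and 36.1 ± 0.602 in control libraries (edgeR adjusted p = 0.074). Without control replicate 1 DNAJC7 passed (log2 fold change -0.11, edgeR adjusted p = 0.0211), and its model overlaps that of CNP by 1320 bases. The ratio of DNAJB1 to DNAJA1 overlapped between groups, at 0.791 to 0.83 in GDC-R and 0.722 to 0.86 in control libraries.

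Of BAG1, BAG3 and STUB1, which release or divert HSP70 substrates, BAG3 passed. BAG3, which steers HSP70 clients to autophagy together with the small chaperone HSPB8, had 42.4, 47.8 and 45.2 FPKM in GDC-R and 47.8, 51.9 and 55.4 in control libraries. The highest resistant library reached the lowest control library. Its log2 fold change of -0.21 ± 0.06 (SE, edgeR adjusted p = 0.0236) lost the call without GDC-R replicate 1 or 3 (-0.16 and -0.21) and without control replicate 2 or 3 (-0.21 and -0.16). BAG1, a nucleotide exchange factor linked to the proteasome, was level, at 11.7 ± 0.596 FPKM in GDC-R and 11.6 ± 1.2 in control libraries (SD, n = 3 each; log2 fold change -0.004, 95% interval -0.18 to 0.18). STUB1, which encodes the ubiquitin ligase CHIP, was at 62.3, 63.5 and 62.3 FPKM in GDC-R and at 61.5, 74.0 and 75.3 in control libraries. Control replicate 1 lay below the resistant libraries and the other control libraries above them, and the log2 fold change was -0.18 ± 0.07 (edgeR adjusted p = 0.0605) with it and -0.26 (adjusted p = 7.06e-07) without it. STUB1 also passed with the GC correction (-0.21), and its model overlaps that of JMJD8 by 1103 bases.

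The small heat shock proteins went opposite ways. HSPB1 (HSP27), an abundant holdase that binds unfolding proteins without ATP, had 95.2, 94.4 and 97.9 FPKM in GDC-R and 96.7, 119.4 and 119.3 in control libraries. Control replicate 1 lay in the resistant range, and the log2 fold change was -0.24 ± 0.08 (SE, edgeR adjusted p = 0.0282) with it and -0.33 (adjusted p = 6.74e-08) without it. Leaving out any other library removed the HSPB1 call (-0.25 to -0.19).

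HSPB8 was the only one of the 36 below the filter. It had 68, 65 and 63 fragments in GDC-R replicates 1 to 3 (1.01, 0.775 and 0.818 FPKM), against 12, 21 and 20 in control replicates 1 to 3 (0.156, 0.271 and 0.284 FPKM). The groups were well apart, and in a fit of 22112 genes without the filter the log2 fold change was 1.82 ± 0.25 (SE; 3.52-fold; edgeR adjusted p = 3.02e-05). By size this was the largest difference among the 36 genes, at a level that was a small part of HSPB1. HSPB8 spans bases 119616595 to 119632551 of chromosome 12 (hg19).

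TRiC subunits fell unevenly. The complex has 8 different subunits in each ring, of which 7 are among the 36 genes, and the eighth, CCT6A, was taken from a list of related genes. CCT4 had 187.9, 185.7 and 188.3 FPKM in GDC-R, against 238.2, 247.6 and 246.8 in control libraries (log2 fold change -0.40 ± 0.04, SE; edgeR adjusted p = 4.10e-05). TCP1, the alpha subunit, had 137.6, 137.8 and 134.8 FPKM in GDC-R, against 173.6, 175.7 and 171.5 in control libraries (-0.36 ± 0.04, adjusted p = 8.52e-05). Resistant libraries varied little among themselves and lay far below the control libraries for both genes. CCT7 was at 240.7, 245.8 and 235.5 FPKM in GDC-R, against 279.0, 312.0 and 323.4 in control libraries (-0.36 ± 0.05, adjusted p = 0.000736). CCT5 was at 165.7, 164.7 and 164.7 FPKM in GDC-R, against 203.3, 201.1 and 201.1 in control libraries (-0.31 ± 0.03, adjusted p = 0.000147). CCT6A behaved alike, at 156.7, 152.1 and 154.7 FPKM in GDC-R, against 214.6, 197.2 and 194.3 in control libraries (-0.41 ± 0.05, adjusted p = 0.000248).

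The remaining subunits changed little. CCT8 averaged 188.5 ± 2.42 FPKM in GDC-R and 204.3 ± 7.23 in control libraries (SD, n = 3 each), with an edgeR adjusted p of 0.0269 for its log2 fold change of -0.14 ± 0.04 (SE). That CCT8 call was lost with the GC correction (-0.03, adjusted p = 0.466) and without control replicate 2 (-0.14) or any GDC-R library (-0.14 to -0.12). CCT2, at 189.3 ± 2.99 FPKM in GDC-R and 196.9 ± 1.49 in control libraries, did not pass (-0.08 ± 0.04, edgeR adjusted p = 0.114). CCT3, the most abundant subunit per length, had 392.9, 395.8 and 388.7 FPKM in GDC-R and 383.7, 409.1 and 417.4 in control libraries (-0.06 ± 0.04, edgeR adjusted p = 0.24). Both passed without control replicate 1 (-0.07 and -0.09), still with small values. Since CCT3 was level and TCP1, already the lowest, fell, the highest subunit was 2.85 to 2.88 times the lowest in GDC-R libraries, against 2.21 to 2.43 times in control libraries. The model of TCP1 overlaps ACAT2 by 615 bases and that of CCT3 overlaps TSACC by 1102 bases.

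**Figure D4:**
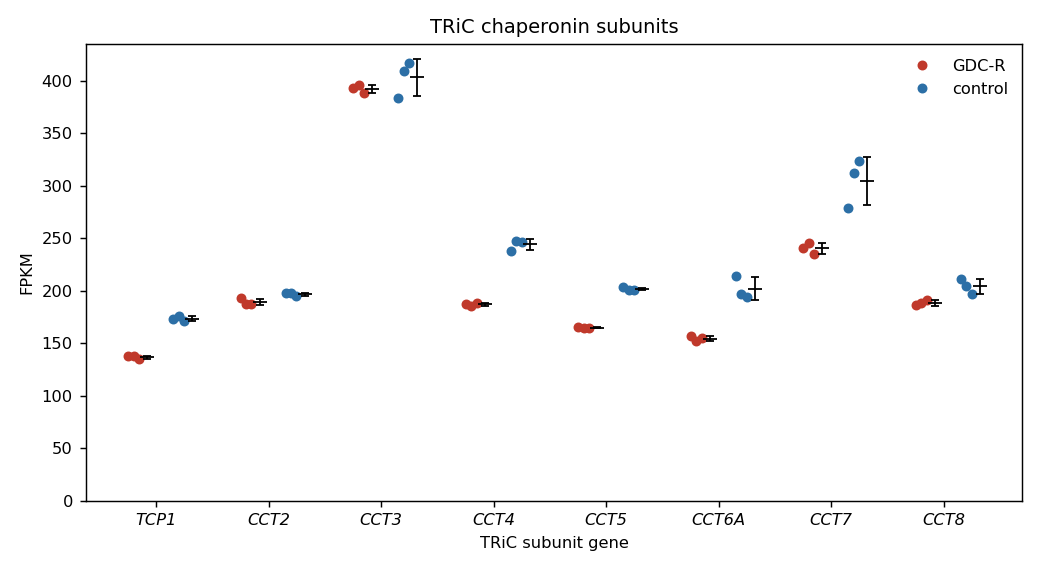
FPKM of the 8 TRiC subunit genes in each library (points, GDC-R left in red, control right in blue), with mean and SD (black, n = 3 each). Resistant points lie below control points for TCP1, CCT4, CCT5, CCT6A and CCT7 by the widest margins, and the groups overlap for CCT3.

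Mitochondrial chaperones fell, with the exception of DNAJA3. HSPD1 (HSP60), the matrix chaperonin, had 239.9, 243.7 and 244.3 FPKM in GDC-R, against 311.9, 308.6 and 293.1 in control libraries (log2 fold change -0.35 ± 0.04, SE; edgeR adjusted p = 0.000187). HSPE1 (HSP10), its lid, had 65.9, 68.3 and 73.0 FPKM in GDC-R, against 98.4, 80.7 and 76.4 in control libraries (-0.32 ± 0.10, adjusted p = 0.0221). Neither gene's groups overlapped, though for HSPE1 control replicate 1 stood high, and the HSPE1 change was -0.20 without it. The HSPE1 call was lost without GDC-R replicate 1 or 2 (-0.28 and -0.31). The pair lies head to head on chromosome 2 (198351308 to 198364998 and 198364721 to 198368187, hg19) with 278 bases of overlap, and HSPE1 also lies within the readthrough model HSPE1-MOB4, so its count is uncertain. The ratio of HSPD1 to HSPE1 overlapped between groups, at 3.35 to 3.64 in GDC-R and 3.17 to 3.84 in control libraries (exact two-sided permutation test, p = 0.8).

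TRAP1, the mitochondrial HSP90, had 77.7, 78.7 and 73.7 FPKM in GDC-R, against 88.9, 102.3 and 102.7 in control libraries. It was lower in all 3 resistant libraries, with a log2 fold change of -0.37 ± 0.06 (SE, edgeR adjusted p = 0.00107). HSPA9 (mortalin), the mitochondrial HSP70 that also pulls proteins through the inner membrane, had 139.5, 144.2 and 141.6 FPKM in GDC-R, against 157.8, 159.6 and 159.8 in control libraries (-0.19 ± 0.04, adjusted p = 0.00281). DNAJA3 (TID1), its J-domain partner, was at 46.7, 46.5 and 46.8 FPKM in GDC-R and at 45.6, 48.6 and 51.9 in control libraries (-0.08 ± 0.05, edgeR adjusted p = 0.213), with overlap. It passed without control replicate 1 (-0.12, adjusted p = 0.00428) and with the GC correction (-0.14, adjusted p = 0.00366). The summed FPKM of the 5 mitochondrial genes was 569.7, 581.4 and 579.4 in GDC-R, against 702.6, 699.9 and 683.8 in control libraries, 17% lower without overlap (exact two-sided permutation test, p = 0.1, the smallest possible).

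Related genes outside the 36, on lists also chosen with earlier results of these data known, often fell as well. Among 20 tested HSP70 partners and J-domain proteins, 10 fell, 1 rose and 9 did not pass, with a median log2 fold change of -0.19. Of all genes tested, 25.7% fell and 24.5% rose. Without control replicate 1, 11 fell and 5 rose, where 32.9% of all genes fell and 31.9% rose. Without control replicate 3, 8 fell and 2 rose, where 3153 of all 13070 genes fell and 3096 rose. Without GDC-R replicate 3, 6 fell and 1 rose, where 2421 of all genes fell and 2611 rose. HSPH1 (HSP110), a stress-inducible exchange factor, had 49.9, 48.0 and 49.4 FPKM in GDC-R, against 87.7, 79.6 and 76.3 in control libraries (-0.75 ± 0.06, SE; edgeR adjusted p = 2.16e-05). HSPH1 is on chromosome 13, where the median of 232 tested genes was -0.21. BAG2, an inhibitor of CHIP, and HSPA2, an HSP70 known from the testis, fell too, with log2 fold changes of -0.59 and -0.51. DNAJB2, named after its values were seen as the gene that rose, was at 0.40.

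Of 13 other HSP90 cochaperones and assembly factors, 7 fell, 0 rose and 6 did not pass, with a median of -0.25. The shares of all genes were 25.7% lower and 24.5% higher. SUGT1, which links HSP90 to SKP1 ligases and is also on chromosome 13, fell by 0.65 ± 0.09 on the log2 scale (SE, edgeR adjusted p = 0.000546). PTGES3 (p23), which stabilises the closed HSP90 dimer, had 65.9, 56.0 and 63.0 FPKM in GDC-R, against 112.2, 84.9 and 72.8 in control libraries, a log2 fold change of -0.57 that was -0.37 without control replicate 1. RPAP3, of the R2TP complex, had a log2 fold change of -0.43, and -0.22 with the GC correction. AKT1 and other clients were not examined here.

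Among 16 further mitochondrial folding and protease genes, 7 fell, 0 rose and 9 did not pass (median -0.16). For all genes these shares were 25.7% lower and 24.5% higher. Those with the largest values were the inner membrane proteases YME1L1 (log2 fold change -0.47 ± 0.06, SE) and AFG3L2 (-0.38 ± 0.04), and DNAJC11 (-0.38 ± 0.06), a J-domain protein of the cristae organising system. Without control replicate 1, 11 fell, where 32.9% of all genes fell.

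Prefoldin and the other TRiC helpers gave calls in both directions, at shares near those of all genes. Of 10 genes tested on that list, which holds CCT6A, 2 fell, 2 rose and 6 did not pass (median -0.13), where 25.7% of all genes fell and 24.5% rose. The genes that rose were prefoldin subunits, which hand actin and tubulin to TRiC: PFDN5 was at 324.1, 316.9 and 316.0 FPKM in GDC-R, against 246.7, 253.4 and 268.6 in control libraries (log2 fold change 0.30 ± 0.04, SE; edgeR adjusted p = 0.000731), and PFDN1, named after its values were seen, was at 0.25 ± 0.05. VBP1, another prefoldin subunit, had a log2 fold change of -0.34 ± 0.10 that was -0.20 without control replicate 1 and -0.12 with the GC correction, and its call was lost without any 1 GDC-R library (-0.34 to -0.30). With the GC correction 4 genes of the list fell, without control replicate 1 or 2 it was 3, and without any 1 GDC-R library it was 1. Of all genes, 31.7% fell with the GC correction and 32.9% without control replicate 1.

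Other known stress-induced HSF1 targets gave 5 that fell, 1 that rose and 3 that did not pass among 9 tested of 12 (median -0.29). HSPH1 and CHORDC1 are on an earlier list too. Of all genes, 25.7% fell and 24.5% rose. UBB, a polyubiquitin gene, had 282.0, 257.1 and 333.6 FPKM in GDC-R, against 419.4, 408.5 and 411.6 in control libraries (log2 fold change -0.53 ± 0.08, SE; edgeR adjusted p = 0.00103). ZFAND2A (AIRAP), a proteasome-associated protein induced by arsenite, went the other way, at 23.1, 25.0 and 25.5 FPKM in GDC-R, against 18.2, 18.4 and 18.1 in control libraries (0.41 ± 0.07, adjusted p = 0.00118). The list therefore held changes in both directions.

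In the fit with all libraries, chaperones of the endoplasmic reticulum were closer to the background than the cytosolic and mitochondrial chaperone genes described first. Of 17 tested, 6 fell, 2 rose and 9 did not pass, with a median of -0.10, where 25.7% of all genes fell and 24.5% rose. CRELD2 (log2 fold change -0.54 ± 0.09, SE), PDIA4 (-0.47 ± 0.05) and PDIA3 (-0.36 ± 0.04), which have roles in disulphide formation or the stress response of that compartment, fell, and HYOU1 and SIL1, nucleotide exchange factors of the HSP70 BiP that were named after their values were seen, rose by 0.23 and 0.44. Without control replicate 1, 9 of the 17 fell and 3 rose, where 32.9% of all genes fell and 31.9% rose. With the GC correction 9 fell and 4 rose, where 31.7% of all genes fell and 31.0% rose. Without GDC-R replicate 2 or 3, 3 fell and 2 rose. In those 2 fits 2368 and 2421 of all 13070 genes fell, and 2544 and 2611 rose. No test of the difference between compartments was run.

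The calls differed in how far they depended on the fit. Of the 23 genes called, 16 kept the call in all 17 alternatives, 15 of them lower and DNAJB6 higher. The 15 were HSP90AA1, AHSA1, FKBP4, HSPA1A, HSPA1B, HSPA4, HSPA14, DNAJA2, TCP1, CCT4, CCT5, CCT7, HSPA9, HSPD1 and TRAP1. HSP90AB1, STIP1, DNAJB4, BAG3, HSPB1, CCT8 and HSPE1 lost the call in at least 1. The plot of fold changes under other fits shows that DNAJB4 and HSPE1 had the widest ranges among the genes called, together with HSPA1B.

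**Figure D5:**
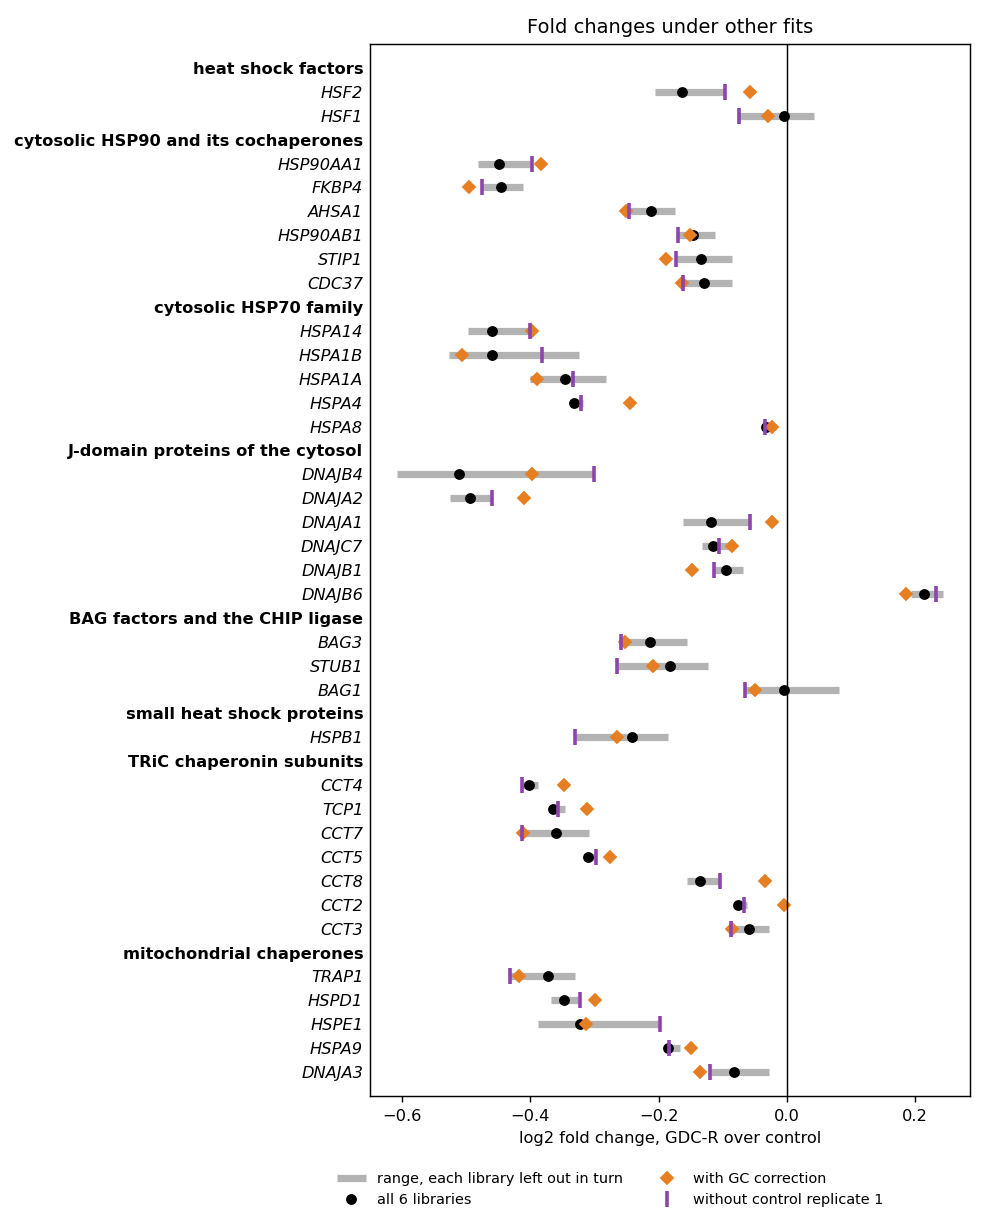
Log2 fold change, GDC-R over control, of each tested chaperone gene with all 6 libraries (black), with a correction for transcript GC content (orange) and without control replicate 1 (purple), over the range from leaving out each library in turn (grey). Most genes keep to the left of zero under every fit shown, while HSF1 and BAG1 cross it.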

How the data were processed

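Total RNA from PC-3 cells was sequenced in 3 GDC-R and 3 control libraries. The submitters' processing notes have reads aligned to hg19, with TopHat2 2.0.6 as a named tool. No label or header states the counting tool, the gene models or whether strand was used. Per the file headers, each deposited table gives a fragment count per gene, and the authors' FPKM and a score (FPM), both made from that count and 1 fragment total per library. The deposited gene counts sum to 5.56% to 5.84% above that total.

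The 36 genes and the related lists were chosen with earlier results of these data known. From the 27734 rows, 396 repeated symbols (849 rows) were dropped, and the 13070 genes averaging at least 1 FPKM were tested in edgeR 4.0.16 (quasi-likelihood test on the counts, TMM scaling, group as the only term, Benjamini-Hochberg adjusted p under 0.05). The biological coefficient of variation was 7.17%. FPKM means carry the SD of 3 libraries, fold changes the SE from the edgeR F statistic. Ratios and sums of FPKM were compared by exact permutation over libraries, computed on log2 values. GENCODE 29 transcript GC content (12503 genes) fed loess offsets (span 0.3). All 36 genes were named; of each related list, up to 3 passing genes with the largest change and a mean of at least 5 FPKM in the higher group. Alternatives used DESeq2 1.42.0, limma 3.58.1 (pseudocounts 1 and 0.1), other normalizations and filters, a replicate block, the GC correction and each library left out. The pipeline was tested on simulated data.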

Additional observations from a re-analysis of the deposited data

How the results depend on the processing

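The number of chaperone genes that fell was 15 to 30 over 17 alternatives, against 22 with all libraries, and their median log2 fold change was -0.25 to -0.17. Over the same alternatives 2319 to 4298 of all genes fell, against 3360 in the main fit, and the number tested differed with the filter. Leaving out a GDC-R library gave 15 to 17, where fewer of all genes passed too, and limma gave 17 at both pseudocounts. With limma 2896 and 2904 of all 13070 genes fell at pseudocounts 1 and 0.1, and 3361 and 3345 rose. DNAJB6 rose in all 17, and 2 genes rose without a filter on low values, the second being HSPB8. In that fit 3827 of 22112 genes rose. Replicate numbers did not pair the libraries (correlations of same-numbered deviations were -0.0896 to 0.0416), and with a replicate block 20 chaperone genes fell and 1 rose. With that block 3222 of all genes fell and 3059 rose.

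For all genes, leaving out 1 library gave 2544 to 4165 higher and 2368 to 4298 lower. At a mean of at least 5 FPKM, the HSP70 partner list had 2 higher and 6 lower, and the endoplasmic reticulum list 1 higher and 5 lower. In that fit, which tested fewer genes, 2398 of all genes rose and 2319 fell. With the GC correction, alone or with the replicate block, 4 HSP70 partners and 4 endoplasmic reticulum chaperones were higher, and 4 genes of the prefoldin and TRiC helper list lower. In both of these fits 11 HSP70 partners and 9 endoplasmic reticulum chaperones were lower. Of all genes, 31.0% rose and 31.7% fell with the GC correction alone. With the block added, 3821 of 12503 genes rose and 3909 fell. Leaving out 1 library gave 1 to 5 higher and 6 to 11 lower for the HSP70 partners, 1 to 3 lower for prefoldin and TRiC helpers, 6 to 11 lower for other mitochondrial genes, and 3 to 9 lower for the endoplasmic reticulum list. The causes were not tested.

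Values near zero changed sign: the log2 difference of the ratio of HSPD1 to HSPE1 was -0.12 to 0.015, that of DNAJB1 to DNAJA1 -0.056 to 0.069, and that of the summed heat shock factors -0.063 to 0.046 with 1 library left out and -0.014 with TMM-scaled FPKM. The 3 libraries per group limit the precision. Counting error weighs most on the genes with the fewest fragments per library, HSPB8 (12 to 68), DNAJB4 (236 to 461) and HSF2 (416 to 579).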
